A study of Mus musculus with 2 samples.

Results

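Dividing epithelial cells without stem cell markers were picked from single-cell RNA libraries of mouse colon by their own UMI counts (unique molecular identifiers, 1 per captured transcript). A cell barcode counted as one when it had at least 200 genes detected, under 20% of its UMIs from mitochondrial genes, at least 10 UMIs of Epcam (an epithelial adhesion protein), at most 2 of Ptprc (the leukocyte antigen CD45), at least 5 of Mki67 and Top2a together (proliferation genes), at most 1 of Lgr5 and Smoc2 together (stem cell genes), under 20 of Muc2 (goblet cell mucin) and under 10 of Aqp8 (a water channel of surface colonocytes). The rule found 230 cells, 62 in library 1 and 168 in library 2, among 2958 epithelial cells (1744 and 1214), 14848 barcodes past the gene and mitochondrial filters and 16208 barcodes in all. Because these counts chose the cells, the levels of the rule's genes are a description and carry no test.

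In the colon crypt, stem cells at the base divide and pass daughters upwards into a transit-amplifying zone, where cells go on dividing while they begin to take on the transporters, enzymes and surface proteins of absorptive colonocytes or the secretory program of goblet cells. Wnt signals sustain the stem and lower-crypt program, and cyclin-dependent kinase inhibitors and factors such as Klf4 mark exit from the cycle nearer the surface. After injury, crypt cells also turn on wound-associated genes of the Ly6 and annexin families.

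Mid-colon was taken from 7-week-old mice of specific-pathogen-free housing after 6 days on 3% dextran sulfate sodium (DSS), which damages the epithelium and brings on colitis. The labels give 1 group of 2 libraries of unsorted cells and no strain, and untreated colon was not analysed here, so no value below is an effect of DSS. Whether each library is a separate animal is not stated. A p-value here reflects no more than how far differences between groups of cells varied across 2 libraries, and that variation could be technical. The libraries held 76622643 and 94204110 UMIs, and 18 barcode sequences occurred in both, 2 of them belonging to dividing non-stem cells.

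The selected cells carried the genes of their label well above the minimum. Mki67 and Top2a together had a median of 38 UMIs per cell in library 1 (range 5 to 202) and 35 in library 2 (5 to 263), and Epcam had medians of 95.5 and 92.5. Lgr5 and Smoc2 were both at 0 in 54 of 62 and 149 of 168 cells. Cftr, the chloride channel of crypt cells and no part of the rule, had at least 1 UMI in 59 of 62 cells and 152 of 168 cells. Muc2 had medians of 2 and 1 UMIs and Aqp8 of 1 and 0.

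At the division limit 9 and 14 cells just inside had 5 or 6 UMIs of Mki67 and Top2a, and 27 and 35 otherwise qualifying cells just outside had 3 or 4. At the stem limit, 8 and 19 cells inside had 1 UMI of Lgr5 and Smoc2, and 7 and 10 cells outside had 2. The Muc2 limit was sparsely populated, with 0 and 2 cells inside at 15 to 19 UMIs and 1 and 0 outside at 20 to 24. At the Aqp8 limit, 0 and 2 cells lay inside at 7 to 9 UMIs and 0 and 1 outside at 10 to 12. The Epcam limit had 1 and 8 cells inside at 10 to 14 UMIs and 1 and 13 outside at 5 to 9, and the Ptprc limit had 2 and 8 cells inside at 2 UMIs and 0 and 7 outside at 3.

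Dividing non-stem cells made up 3.56% of the 1744 epithelial cells of library 1, with an exact 95% binomial interval of 2.74 to 4.53, and 13.8% of the 1214 of library 2, with an interval of 11.9 to 15.9. Cells with at least 5 UMIs of Mki67 and Top2a were 10.4% in library 1, interval 8.99 to 11.9, and 24.1% in library 2, interval 21.7 to 26.6. The intervals of the libraries do not overlap, but they cover counting error only, and with 1 condition the difference has no test. Library 2 also had deeper epithelial cells, with a median of 24112 UMIs against 18254 in library 1, and a minimum in raw UMIs favours deeper cells. When each cell was thinned to 5000 UMIs, 15.1% of 1661 epithelial cells in library 1 and 30.8% of 1162 in library 2 still held a UMI of Mki67 or Top2a. The same share was 90.3% and 90.9% among dividing non-stem cells, and 4.88% and 10.2% among cells with at least 10 UMIs of Aqp8, of which 11 of 820 and 3 of 368 passed the division minimum before thinning. The part of free RNA and doublets in these shares was not tested.

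Of all dividing epithelial cells, dividing non-stem cells were 34.3% in library 1 (62 of 181, interval 27.4 to 41.7) and 57.5% in library 2 (168 of 292, 51.6 to 63.3). At least 2 UMIs of Lgr5 and Smoc2 kept out 28.2% and 13.7%. At least 20 UMIs of Muc2 kept out 33.7% and 27.7%. Aqp8 kept out 3.87% and 1.03%.

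**Figure D1:**
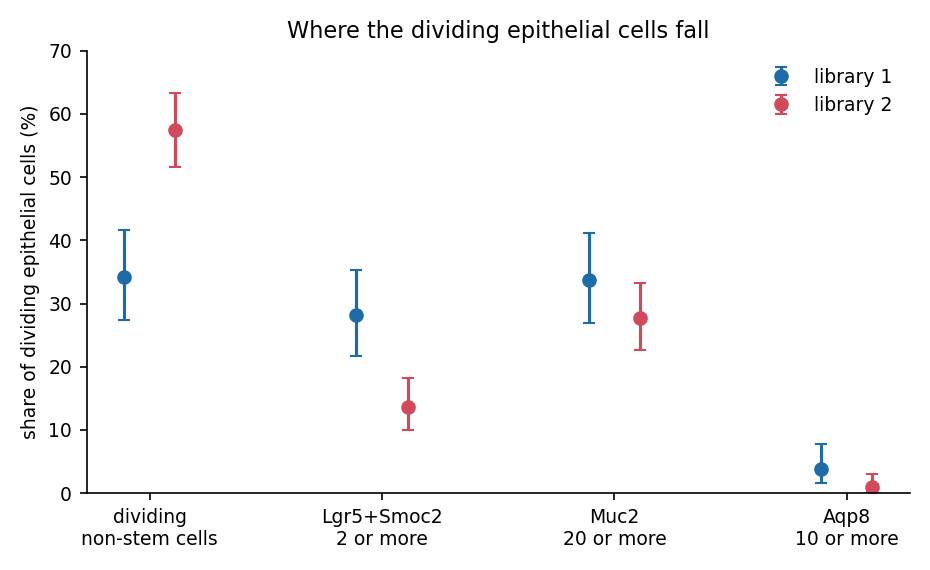
Share of the dividing epithelial cells (at least 5 UMIs of Mki67 and Top2a, vertical axis in percent) that met the whole rule or were kept out by stem markers, Muc2 or Aqp8, in library 1 (blue, 181 cells) and library 2 (red, 292 cells), with exact 95% binomial intervals. Cells that met the whole rule were 34.3% and 57.5% of the dividing cells.

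The comparison cells passed the same Epcam, Ptprc and quality limits and did not overlap with the dividing non-stem cells. Dividing stem-marker cells had at least 3 UMIs of Lgr5 and Smoc2 and the same limits on Mki67 and Top2a, Muc2 and Aqp8 (44 and 30 cells). Cftr-positive non-dividing crypt cells had at least 2 UMIs of Cftr and at most 1 each of the division pair and the stem pair, with the same limits on Muc2 and Aqp8 (101 and 61 cells). Aqp8-high surface colonocytes had at least 10 UMIs of Aqp8, under 20 of Muc2 and at most 1 of the division pair (777 and 343 cells). Median depth was 37148 and 38139.5 UMIs in dividing non-stem cells, 42628 and 42905.5 in dividing stem-marker cells, 27055 and 30233 in Cftr-positive cells and 13703 and 16865 in surface colonocytes. UMIs were summed per library and group, and levels below are UMIs per 1000000 of the summed total (CPM), library 1 before library 2. Log2 differences are dividing non-stem cells over the other group, with SE, from an edgeR quasi-likelihood fit with TMM scaling over 11640 genes and 10 sums that included goblet cells, and adjusted p-values are Benjamini-Hochberg over all genes of a comparison. The groups were split on stem, division, Cftr and Aqp8 UMIs, so genes that vary with those are not independent of the split.

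Within the dividing non-stem cells, mitotic transcripts outweighed those of DNA synthesis. In cells thinned to 5000 UMIs, a list of 32 genes of G2 and mitosis had medians of 27.5 and 25 UMIs per cell, against 14.5 and 32 in dividing stem-marker cells. A list of 32 genes of DNA replication and S phase had medians of 5 and 9 UMIs in dividing non-stem cells, against 10.5 and 10 in dividing stem-marker cells. The mitotic sum was more than 1.5 times the S phase sum in 51 of 62 and 108 of 165 dividing non-stem cells, the S phase sum was the larger by that factor in 5 and 17, and 6 and 40 cells fell between. Among dividing stem-marker cells the mitotic sum was the larger by that factor in 22 of 44 and 21 of 30 cells and the S phase sum in 14 and 4, so the share of mitosis-heavy cells was higher in dividing non-stem cells in library 1 (82.3% against 50%) and lower in library 2 (65.5% against 70%). Only these ranges are meant, not phases of the cycle: 7 and 28 cells had a ratio close to the limit of 1.5, and Mki67 and Top2a, on which the cells were chosen, are themselves genes of late S phase, G2 and mitosis.

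**Figure D2:**
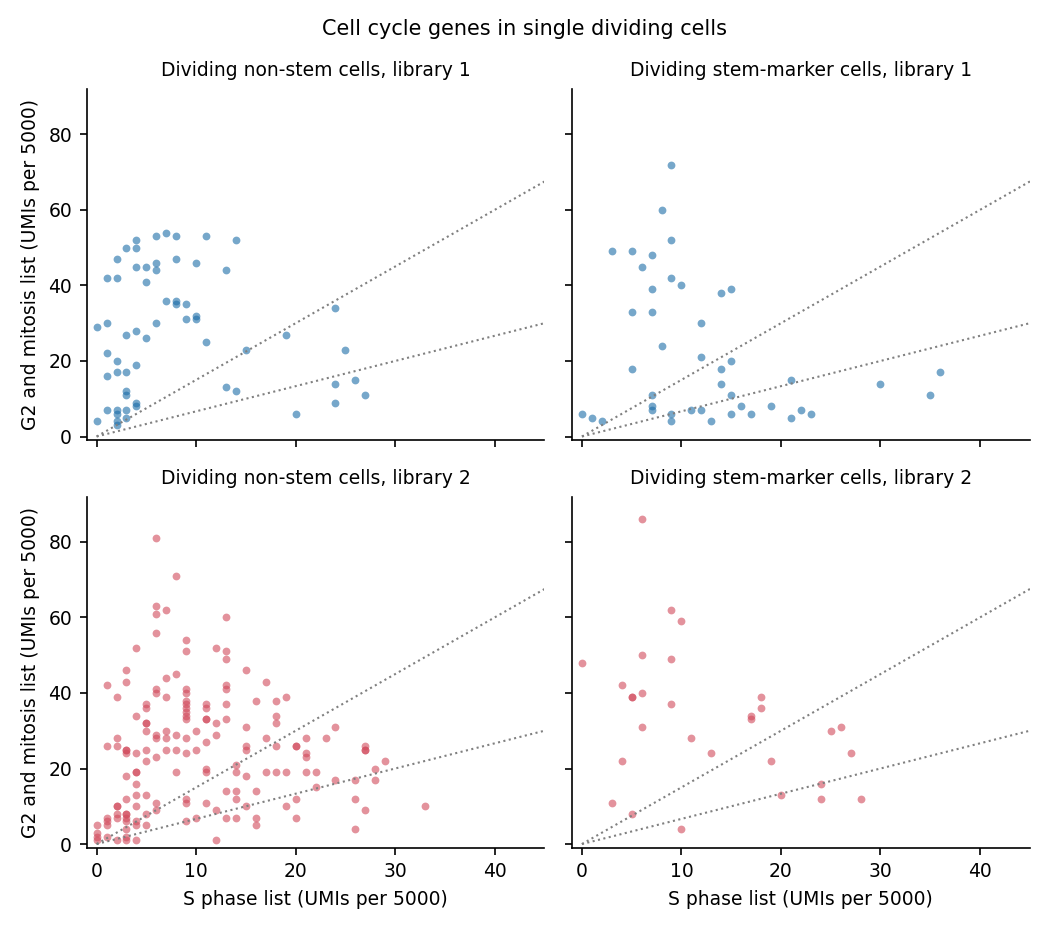
UMIs of the S phase list (horizontal axis) against UMIs of the G2 and mitosis list (vertical axis) in single cells thinned to 5000 UMIs, dividing non-stem cells on the left and dividing stem-marker cells on the right, libraries 1 and 2 in the upper and lower rows. Dotted lines mark ratios of 1.5 in either direction, and 51 of 62 and 108 of 165 dividing non-stem cells lie above the upper line.

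Promoters of the S phase and mitosis lists were searched for words that cell cycle factors are known to read. Promoters (250 bases before to 50 after the first listed start, RefSeq, GRCm38.p6) were found for 27 genes of each list and are shown for the leading genes of each: Pcna (chr2:132253131-132253430, minus strand), the clamp of DNA polymerase, and Rrm1 (chr7:102441445-102441744, plus strand), a subunit of ribonucleotide reductase, for S phase, and Hmgb2 (chr8:57511593-57511892, plus strand), a chromatin protein, and Ube2c (chr2:164769679-164769978, plus strand), which passes ubiquitin to mitotic cyclins, for G2 and mitosis. Hells (chr19:38930740-38931039, plus strand), a chromatin remodeller, was added after the matches had been seen, as the S phase gene with the highest level among those with an E2F word. Capitals mark CCAAT (the NF-Y box), the word TTTGAA (the core of the cell cycle homology region) and the E2F words TTTCCCGC, TTTCGCGC, TTTGCCGC and TTTGGCGC, searched on both strands, and sequences run 5′ to 3′ along the gene.
Pcna: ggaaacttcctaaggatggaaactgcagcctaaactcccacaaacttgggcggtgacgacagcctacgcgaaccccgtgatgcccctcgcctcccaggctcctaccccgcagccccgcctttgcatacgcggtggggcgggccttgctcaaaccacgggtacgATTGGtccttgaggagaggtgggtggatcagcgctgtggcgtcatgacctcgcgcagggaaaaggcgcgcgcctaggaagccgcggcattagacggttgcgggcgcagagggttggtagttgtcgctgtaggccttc
Rrm1: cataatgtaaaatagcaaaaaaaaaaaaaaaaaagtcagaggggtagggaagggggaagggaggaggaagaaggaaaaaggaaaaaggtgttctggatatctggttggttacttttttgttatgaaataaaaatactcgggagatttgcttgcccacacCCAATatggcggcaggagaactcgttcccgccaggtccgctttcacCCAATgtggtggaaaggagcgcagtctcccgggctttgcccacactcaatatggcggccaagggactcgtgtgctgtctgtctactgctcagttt
Hells: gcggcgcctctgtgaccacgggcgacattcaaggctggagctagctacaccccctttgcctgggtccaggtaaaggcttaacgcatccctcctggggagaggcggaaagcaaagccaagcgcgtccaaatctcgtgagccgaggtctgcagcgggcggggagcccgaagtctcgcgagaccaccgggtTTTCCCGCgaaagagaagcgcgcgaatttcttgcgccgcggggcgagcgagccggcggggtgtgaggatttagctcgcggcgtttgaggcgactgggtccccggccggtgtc
Hmgb2: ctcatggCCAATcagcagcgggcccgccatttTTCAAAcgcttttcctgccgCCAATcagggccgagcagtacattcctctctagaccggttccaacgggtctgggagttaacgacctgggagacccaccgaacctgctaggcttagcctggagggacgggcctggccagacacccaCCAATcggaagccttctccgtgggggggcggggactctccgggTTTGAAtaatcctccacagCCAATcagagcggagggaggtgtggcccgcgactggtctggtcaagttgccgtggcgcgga
Ube2c: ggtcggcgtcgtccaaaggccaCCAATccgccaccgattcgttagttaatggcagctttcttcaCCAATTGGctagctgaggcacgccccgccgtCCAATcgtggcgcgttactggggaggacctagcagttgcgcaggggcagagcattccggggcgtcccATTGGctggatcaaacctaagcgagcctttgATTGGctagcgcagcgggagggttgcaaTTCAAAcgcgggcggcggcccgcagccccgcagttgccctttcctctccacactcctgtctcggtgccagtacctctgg
TTTGAA was present in 19 of 27 promoters of the G2 and mitosis list (70.4%) and 4 of 27 of the S phase list (14.8%), against 18.1% of 27025 promoters of all genes. CCAAT was in 85.2% and 59.3%, against 37.9% of all, but also in 62.5% of 16 promoters of the goblet and secretory list, and in Ube2c a pair of CCAAT matches on opposite strands overlaps. An E2F word was in 1 of 27 promoters of the G2 and mitosis list (3.70%) and 9 of 27 of the S phase list (33.3%), against 2.32% of all. These matches describe letters in the window and show no binding.

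Genes of G2 and mitosis did not pass the test between dividing cells with and without stem markers, and a few S phase genes were lower in those without. Against dividing stem-marker cells, where 6.11% of genes were higher and 2.49% lower in dividing non-stem cells, none of the 32 G2 and mitosis genes passed the test, with a median log2 difference of 0.10 beside 0.03 for all genes. Both groups had to meet the same minimum of Mki67 and Top2a, so the rules partly matched them on this list. Ube2c had 439 and 343 CPM in dividing non-stem cells and 289 and 371 CPM in dividing stem-marker cells, a log2 difference of 0.29 ± 0.16, and the libraries of the groups overlapped. In the S phase list 5 of 32 genes were lower and none higher (median -0.56). Pcna had 136 and 178 CPM in dividing non-stem cells, against 243 and 248 CPM in dividing stem-marker cells, and its log2 difference was -0.61 ± 0.14 (edgeR, adjusted p = 0.0245). Mcm3, Mcm4 and Mcm7, subunits of the replicative helicase, and Dut, which removes dUTP, were the others. No S phase gene passed the test without the library as a block, with cells thinned to 5000 UMIs or under a stricter rule for the cells.

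The stem cell and Wnt program was lower in the dividing non-stem cells. Of 25 genes on the list, 17 were high enough to be fitted, and 13 of these were lower and 1 higher than in dividing stem-marker cells (median log2 -1.38). Since the groups were split on Lgr5 and Smoc2, part of this follows from the split. Axin2 (chr11:108920349-108950783), a Wnt target that feeds back on the pathway, had 5.87 and 8.91 CPM in dividing non-stem cells, against 53.9 and 55.9 CPM in dividing stem-marker cells, a log2 difference of -2.81 ± 0.25 (edgeR, adjusted p = 0.000442). Ascl2, a transcription factor of stem cells, had 0.734 and 2.97 CPM, against 16.5 and 28.3 CPM in dividing stem-marker cells. Both genes were lower in both libraries without overlap.

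Wnt-linked genes of the wider lower crypt were lower too, by less. Slc12a2, the chloride cotransporter of crypt base cells, had 291 and 397 CPM in dividing non-stem cells and 959 CPM in each library of dividing stem-marker cells, a log2 difference of -1.40 ± 0.27 (edgeR, adjusted p = 0.0088). Ephb3, a receptor that positions cells along the crypt, differed by -2.08 ± 0.33, Cd44 by -1.49 ± 0.20 and Sox9 by -1.07 ± 0.21. Its relative Ephb2 did not pass the test, at 57.6 and 55.6 CPM in dividing non-stem cells and 63.6 and 55.9 CPM in dividing stem-marker cells. The 1 list gene that was higher was Aqp4, a water channel, with 771 and 365 CPM against 255 and 155 CPM in dividing stem-marker cells (1.47 ± 0.22, edgeR, adjusted p = 0.0027).

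Among all genes, those with the largest falls by the naming rule were Rgcc, Axin2, Cdo1, Ifitm3, Aqp1, Sox4, Cd24a and Cdk6. Rgcc, a regulator of the cell cycle, had 2.94 and 4.72 CPM in dividing non-stem cells, against 62.1 and 107 CPM in dividing stem-marker cells (log2 -4.27 ± 0.52, edgeR, adjusted p = 0.00105). Sox4, a transcription factor of progenitors, had 79.7 and 104 CPM against 350.1 and 319 CPM, and Cd24a, a surface protein of crypt base cells, had 108 and 155 CPM against 511 and 465 CPM. Ifitm3, an antiviral membrane protein, had 311 and 495 CPM in dividing non-stem cells and 1386 and 1490.3 CPM in dividing stem-marker cells. The naming rule took only genes that moved the same way in both libraries, so the agreement of the libraries is no further support. In the Notch and EGF receptor list, 4 of 15 genes were lower and none higher: Notch1, Hes6, Etv4 and Etv5. Notch1 had 18.4 and 26.1 CPM in dividing non-stem cells and 61.7 and 59.5 CPM in dividing stem-marker cells.

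Genes of growth were lower as well. Of 22 ribosome biogenesis genes, 8 were lower and none higher in dividing non-stem cells (median -0.58). Npm1, a nucleolar chaperone, had 1064 and 1243 CPM in dividing non-stem cells, against 1815 and 2147 CPM in dividing stem-marker cells (log2 -0.73 ± 0.19, edgeR, adjusted p = 0.0367). Among 9 fitted genes of the G1 cyclin, CDK and Myc list, 3 were lower: Myc, which drives growth, had 15.4 and 30.5 CPM against 65.1 and 58.8 CPM, Cdk6 had 16.9 and 40.9 CPM against 103 and 98.7 CPM, and Cdk4 had 108 and 120.1 CPM against 216 and 236 CPM in dividing stem-marker cells. For each of the 3, both libraries of dividing non-stem cells lay below both of the dividing stem-marker cells. Nucleotide and one-carbon synthesis had 2 of 24 genes lower, and DNA damage response and repair 1 of 20, beside 2.49% of all genes.

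Brakes of the cell cycle moved in both directions. Of 19 fitted genes 6 were higher and 1 lower than in dividing stem-marker cells. Cdkn2b, which encodes the CDK4 and CDK6 inhibitor p15, had 28.3 and 27.7 CPM in dividing non-stem cells, against 4.37 and 4.36 CPM in dividing stem-marker cells (log2 2.69 ± 0.30, edgeR, adjusted p = 0.000777). Klf4 (chr4:55527143-55532466), a transcription factor that restrains division, had 479 and 484 CPM against 189.8 and 136 CPM (1.58 ± 0.23, edgeR, adjusted p = 0.00231). Cdkn1a, the inhibitor p21, had 148 and 501 CPM in dividing non-stem cells and 55.3 and 161 CPM in dividing stem-marker cells, so the groups overlapped although each library moved the same way (1.60 ± 0.28, edgeR, adjusted p = 0.00589). Trp53 was the gene that was lower, at 81.5 and 85.9 CPM against 164 and 181 CPM in dividing stem-marker cells.

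Absorptive genes were higher in the dividing non-stem cells. Of 27 fitted genes 17 were higher and none lower than in dividing stem-marker cells (median 1.65). Car1 (chr3:14766216-14808368), a carbonic anhydrase of colonocytes, had 447 and 803 CPM in dividing non-stem cells, against 90.3 and 88.6 CPM in dividing stem-marker cells, a log2 difference of 2.74 ± 0.24 (edgeR, adjusted p = 0.000442). Guca2a, the precursor of guanylin, had 422 and 449 CPM against 125 and 95.8 CPM (2.01 ± 0.20, edgeR, adjusted p = 0.000471). Lypd8, which keeps motile bacteria off the epithelium, had 3071 and 3186 CPM in dividing non-stem cells and 1401 and 650.4 CPM in dividing stem-marker cells, and in all 3 genes the groups did not overlap. Among those that did not pass, Krt20, a keratin of differentiated cells, had 105 and 441 CPM against 151 and 16 CPM, Vil1 had 168 and 238 CPM against 147 and 139 CPM, and the transcription factors Hnf4a and Cdx2 differed by 0.22 ± 0.16 and 0.30 ± 0.13.

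Glycolytic genes were higher too. Of 16 genes 14 were higher and none lower (median 1.02). Ldha, lactate dehydrogenase A, had 853 and 1118 CPM in dividing non-stem cells, against 416 and 523 CPM in dividing stem-marker cells (1.11 ± 0.15, edgeR, adjusted p = 0.00171), and the lactate transporter gene Slc16a3 had 11 and 21.7 CPM against 4.37 and 2.18 CPM. Fatty acid oxidation and ketogenesis had 3 of 17 genes higher, Cpt1a, Acadl and Acadvl. Oxidative phosphorylation had 1 of 21, the cytochrome c gene Cycs, a share below the 6.11% of all genes.

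Defence and wound genes were higher in part. Antimicrobial and mucosal defence had 6 of 20 genes higher and none lower, and the wound and fetal-like list had 6 of 19 fitted genes higher and none lower. Reg3b, a bactericidal lectin, had 3774 and 3102 CPM in dividing non-stem cells, against 718 and 555 CPM in dividing stem-marker cells (2.47 ± 0.26, edgeR, adjusted p = 0.000658), and its relative Reg3g had 952 and 529 CPM against 71.9 and 106 CPM. A single cell held 45.3% of the Reg3b UMIs of library 1, and without it the level there was 2149 CPM, still above both libraries of dividing stem-marker cells. Ly6a, which encodes the fetal-like repair marker Sca-1, had 905 and 1494 CPM in dividing non-stem cells and 485 and 599 CPM in dividing stem-marker cells (1.16 ± 0.17, edgeR, adjusted p = 0.00266). Anxa1, an anti-inflammatory annexin, had 162 and 310.1 CPM against 70.9 and 101 CPM, and Areg, an EGF family ligand, did not pass, at 27.2 and 262 CPM against 49 and 59.5 CPM. In the interferon-stimulated and antigen presentation list 2 of 26 genes were higher, Isg15 and Irf7, near the background. Goblet and secretory genes had none of 25 higher and 2 lower, Foxa3 and Kit, and dissociation stress genes had none of 15 in either direction.

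**Figure D3:**
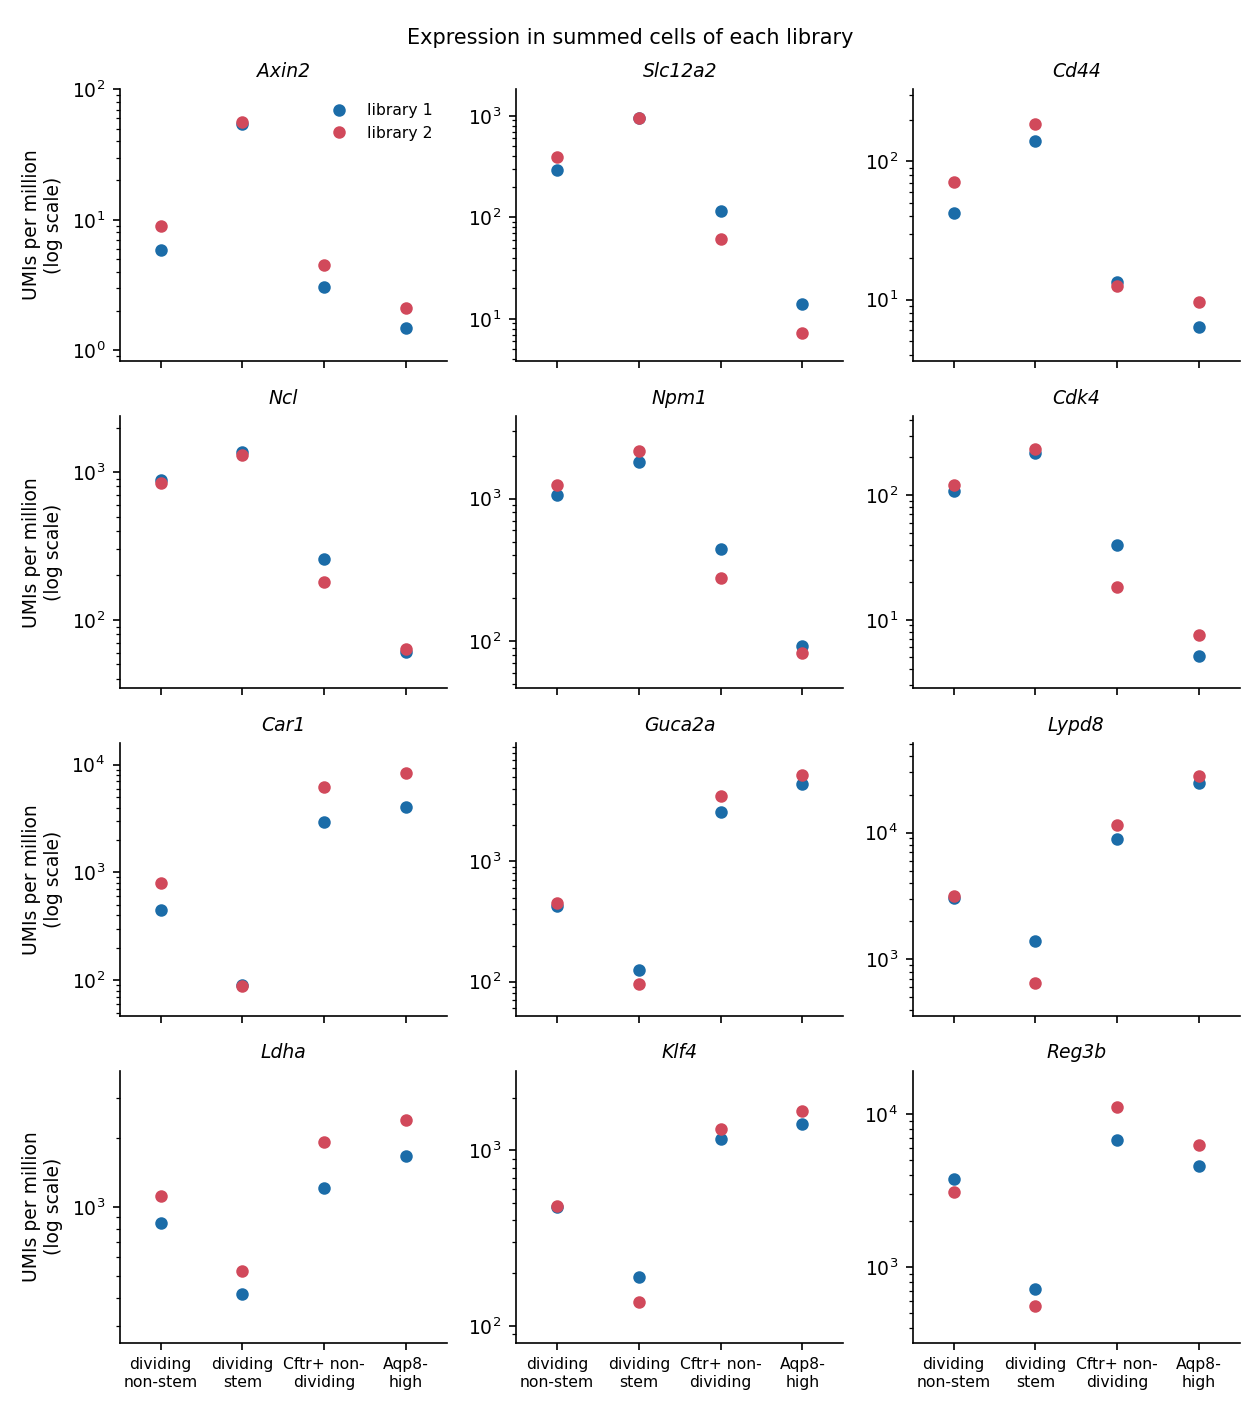
Levels of 12 genes in CPM of summed cells (log scale) in each library (blue, library 1; red, library 2) for dividing non-stem cells, dividing stem-marker cells, Cftr-positive non-dividing crypt cells and Aqp8-high surface colonocytes. In all 12 panels the dividing non-stem cells lie between the dividing stem-marker cells and the Cftr-positive cells in both libraries. The 12 genes were picked for display and do not stand for all genes. Cdkn2d was above both of these groups in both libraries, and Krt20 was below both in library 1.

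These counts against dividing stem-marker cells depended on the fit and on depth. In all, 711 genes were higher and 290 lower, against 321 and 100 without the library as a block, 147 and 57 with cells thinned to 5000 UMIs and 380 and 153 under the stricter rule. Without the block, 10 of 27 absorptive, 6 of 16 glycolytic, 2 of 22 ribosome biogenesis and 10 of 17 stem and Wnt genes passed in the same directions, and 1 of 19 wound genes. Among genes given with their values above, Pcna, Sox9, Aqp4, Ifitm3, Npm1, Cdk4, Cdkn1a, Ldha, Ly6a and Anxa1 no longer passed without the block (adjusted p = 0.0542 to 0.204), and Pcna, Notch1, Myc, Cdk4, Cdk6, Cdkn2b and Slc16a3 no longer passed in thinned cells.

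Set against Cftr-positive crypt cells that were not dividing, the dividing non-stem cells were lower in absorptive genes and higher in genes of synthesis. The word crypt in that name rests on at least 2 UMIs of Cftr, and these cells were rich in absorptive transcripts. The summed absorptive list had 28161 and 36882.5 CPM in them and 9820 and 10684 CPM in dividing non-stem cells. In surface colonocytes it had 68003 and 76774 CPM. In that comparison 18.7% of genes were higher and 18.2% lower in dividing non-stem cells with TMM scaling, and with library totals alone the split was 3211 higher and 1278 lower in place of 2171 and 2123. All 27 fitted absorptive genes were lower in dividing non-stem cells (median -1.97), with 25 of 27 by library totals. Car1 had 447 and 803 CPM in dividing non-stem cells, against 2943 and 6179 CPM in Cftr-positive cells (-3.10 ± 0.23, edgeR, adjusted p = 3.91e-06). Slc9a3, the apical sodium-proton exchanger, had 23.1 and 29.2 CPM against 149.6 and 285 CPM (-3.28 ± 0.37, edgeR, adjusted p = 7.37e-05). Krt20 passed here, at 105 and 441 CPM in dividing non-stem cells and 776 and 1388 CPM in Cftr-positive cells (-2.31 ± 0.71, edgeR, adjusted p = 0.0246), but neither without the library block nor by DESeq2 (adjusted p = 0.0614 and 0.139). The genes with the largest falls by the naming rule were Cyp2c55, Slc9a3, Apob, Car1, Guca2a, Ly6g, Car4 and Mep1b, with log2 differences from -3.30 to -2.90.

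The single cells spread widely between these groups. In cells thinned to 5000 UMIs the absorptive list had medians of 38 and 27 UMIs in dividing non-stem cells, 15.5 and 15.5 in dividing stem-marker cells and 89 and 157 in Cftr-positive cells. Of the dividing non-stem cells, 7 of 62 and 8 of 165 reached the median of the Cftr-positive cells, and 5 and 14 were at or below that of the dividing stem-marker cells. Their range was 13 to 297 UMIs in library 1 and 7 to 227 in library 2. For ribosome biogenesis the medians were 15 and 18 UMIs in dividing non-stem cells, 26 and 29.5 in dividing stem-marker cells and 4 and 3 in Cftr-positive cells.

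Synthesis and genome maintenance genes were higher than in the non-dividing crypt cells. This held for all 22 ribosome biogenesis genes (median 1.54), 22 of 24 nucleotide and one-carbon synthesis genes (1.40), all 20 DNA damage and repair genes (3.08) and 20 of 23 chromatin genes (1.86). The groups were split on Mki67 and Top2a, so part of this follows from the split. Npm1 had 1064 and 1243 CPM in dividing non-stem cells, against 442 and 278 CPM in Cftr-positive cells (1.44 ± 0.19, edgeR, adjusted p = 0.00022). Dnmt1, the maintenance DNA methyltransferase, had 83.7 and 92.6 CPM in dividing non-stem cells, against 19.3 and 10.3 CPM in Cftr-positive cells. Both libraries of dividing non-stem cells were above both of the Cftr-positive cells for both genes. The S phase, mitosis and histone lists follow the split on Mki67 and Top2a and are given without a test: their medians were 2.80, 4.95 and 2.14. Ccnb1, the mitotic cyclin B1, had 105 and 75.9 CPM in dividing non-stem cells and no UMI in either library of Cftr-positive cells, where 3 counts would have been 1.01 and 1.35 CPM. H2bc4, a histone H2B gene, was the member of these lists with the opposite sign, at 119 and 150.2 CPM in dividing non-stem cells and 191 CPM in each library of Cftr-positive cells.

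Much of the stem and Wnt list was higher than in the non-dividing crypt cells. Of 17 fitted stem and Wnt genes 10 were higher than in Cftr-positive cells and 2 lower, Prom1 and Aqp4. Slc12a2 had 291 and 397 CPM in dividing non-stem cells, against 117 and 61.6 CPM in Cftr-positive cells (1.76 ± 0.28, edgeR, adjusted p = 0.000646), whereas Axin2 did not pass, at 5.87 and 8.91 CPM against 3.04 and 4.5 CPM (0.77 ± 0.35). Myc, Cdk2, Cdk4 and Cdk6 were higher, 4 of 9 genes. Among the brakes 6 of 19 were higher and 9 lower. Of all genes, 18.7% were higher and 18.2% lower in this comparison. Klf4 had 479 and 484 CPM in dividing non-stem cells, against 1159 and 1334 CPM in Cftr-positive cells (-1.63 ± 0.22, edgeR, adjusted p = 0.000238). Cdkn2d, the inhibitor p19 of the INK4 family, was higher than in each comparison group, at 30.1 and 21.3 CPM in dividing non-stem cells, 5.83 and 13.8 CPM in dividing stem-marker cells, 6.75 and 12.6 CPM in Cftr-positive cells and 6.97 and 7.75 CPM in surface colonocytes, with log2 differences of 1.48 ± 0.38, 1.16 ± 0.35 and 0.94 ± 0.30 (edgeR, adjusted p = 0.0349, 0.0228 and 0.0135). Ccng1, a p53 target, passed in the same direction in all 3 comparisons, with log2 differences of 1.06 ± 0.24, 0.91 ± 0.23 and 1.61 ± 0.23. Without the library block Ccng1 did not pass against dividing stem-marker cells or Cftr-positive cells (adjusted p = 0.322 and 0.236), nor Cdkn2d against dividing stem-marker cells (0.0748), and by DESeq2 Cdkn2d did not pass against Cftr-positive cells or surface colonocytes (0.078 and 0.114).

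Many energy, defence and wound genes were lower than in the Cftr-positive cells, where 18.2% of all genes were lower. The counts were 14 of 16 glycolytic genes (median -0.74), 10 of 17 fatty acid oxidation genes (-0.68), 11 of 21 oxidative phosphorylation genes (-0.41), 12 of 20 defence genes (-0.83) and 9 of 19 wound genes (-0.89), and among these lists only Tfam of oxidative phosphorylation was higher. Scaling matters here: by library totals alone, 7 glycolytic, 8 fatty acid oxidation, 6 oxidative phosphorylation, 9 defence and 8 wound genes were lower, and the median of all genes was 0.28, beside 0.04 with TMM. Without the library block, 8 glycolytic, 6 defence and 5 wound genes were lower. Ldha had 853 and 1118 CPM in dividing non-stem cells and 1215 and 1915 CPM in Cftr-positive cells (-0.90 ± 0.15, edgeR, adjusted p = 0.000752). Il18, an epithelial cytokine, had 135 and 55.8 CPM against 279 and 219 CPM (-1.76 ± 0.20, edgeR, adjusted p = 7.32e-05). Reg3b had 3774 and 3102 CPM in dividing non-stem cells and 6756 and 11126 CPM in Cftr-positive cells, and Ly6a had 905 and 1494 CPM against 1605 and 2752 CPM. For each of these 4 genes both libraries of dividing non-stem cells lay below both of the Cftr-positive cells.

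**Figure D4:**
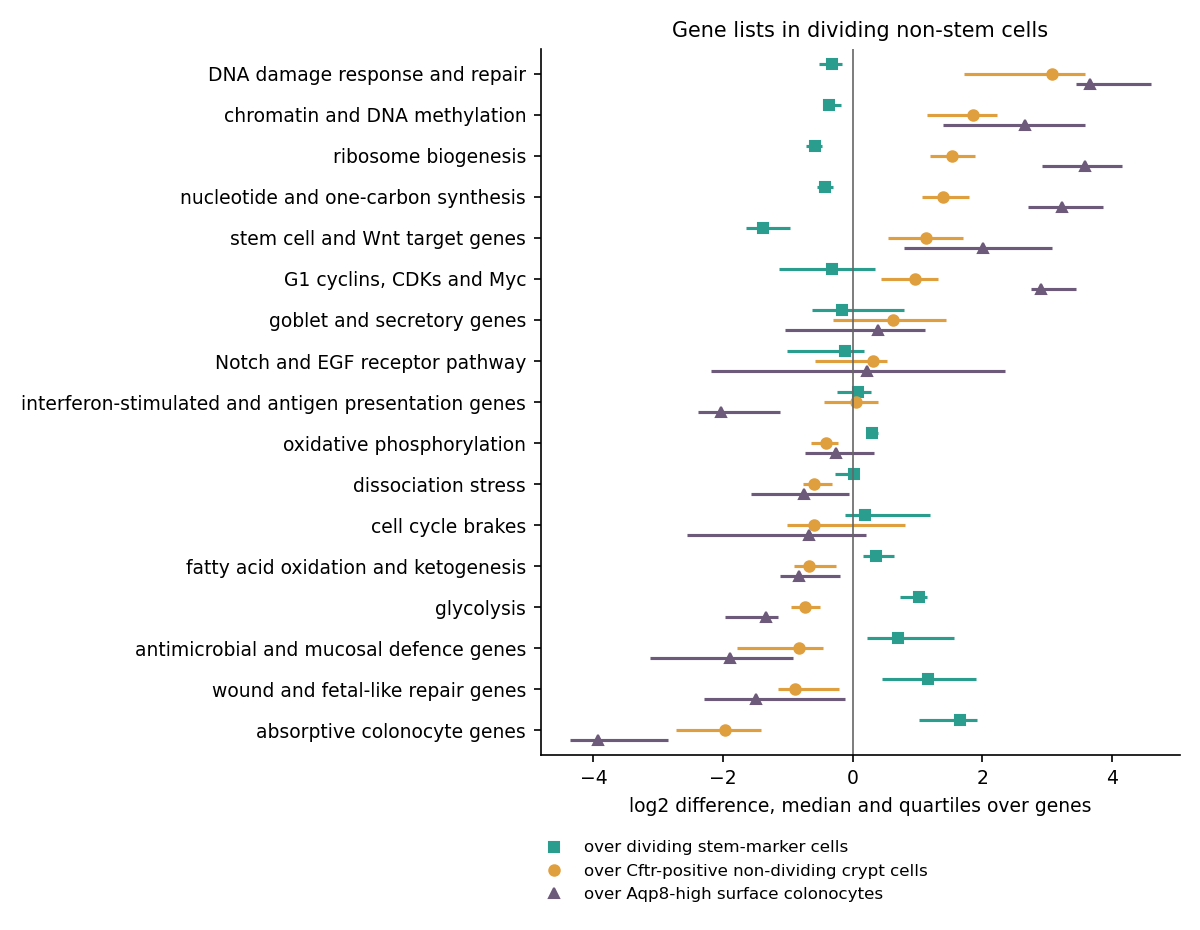
Median log2 difference (marker) and quartiles (line) over the fitted genes of 17 lists, dividing non-stem cells over dividing stem-marker cells (squares), over Cftr-positive non-dividing crypt cells (circles) and over Aqp8-high surface colonocytes (triangles), with TMM scaling. Absorptive genes lie at 1.65, -1.97 and -3.93 and ribosome biogenesis genes at -0.58, 1.54 and 3.58 in the 3 comparisons.

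Against Aqp8-high surface colonocytes, where 39.4% of genes were higher and 35.2% lower in dividing non-stem cells, the distance was larger. That split changed with the scaling: library totals alone gave 6869 higher and 2172 lower in place of 4586 and 4100. TMM factors were 0.644 and 0.713 in surface colonocytes beside 1.20 and 1.19 in dividing non-stem cells, and what set them was not tested. The median of all genes was 0.11 with TMM and 0.93 with totals. All 22 ribosome biogenesis genes were higher (median 3.58), and 26 of 27 absorptive genes lower (-3.93), with 22 and 25 by totals. Since the groups were split on Aqp8 and on Mki67 and Top2a, part of this follows from the split. Car4, a membrane carbonic anhydrase, had 83 and 54.3 CPM in dividing non-stem cells, against 4387 and 3460.0 CPM in surface colonocytes (-6.68 ± 0.45, edgeR, adjusted p = 1.35e-07). Saa1, an acute-phase protein, had 178 and 70.5 CPM against 6164 and 5124 CPM (-6.51 ± 0.40, edgeR, adjusted p = 8.3e-08). The peptide transporter gene Slc15a1 had 2.2 and 1.89 CPM in dividing non-stem cells and 270.5 and 192 CPM in surface colonocytes. These 3 genes came from the naming rule, which required the same direction in both libraries.

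Interferon and antigen presentation genes were lower than at the surface. Against surface colonocytes 24 of 26 were lower in dividing non-stem cells and 1 higher, and 18 were lower by totals. Against Cftr-positive cells 4 of 26 were higher and 4 lower, Irf7 among them (median 0.05), beside 18.7% and 18.2% of all genes. The summed list had 7510 and 6975 CPM in dividing non-stem cells. It had 8243 and 6961 CPM in dividing stem-marker cells, 7871 and 6347 CPM in Cftr-positive cells and 19256 and 13758.5 CPM in surface colonocytes. The lower level was thus not particular to dividing non-stem cells. Irf7, an interferon-induced transcription factor, had 28.6 and 44 CPM in dividing non-stem cells, 8.25 and 10.2 CPM in dividing stem-marker cells, 57.1 and 103 CPM in Cftr-positive cells and 408 and 437 CPM in surface colonocytes. B2m, the light chain of MHC class I, had 1539 and 1437 CPM in dividing non-stem cells and 4581 and 3357 CPM in surface colonocytes (-2.23 ± 0.17, edgeR, adjusted p = 2.73e-07). The gene that was higher was Cxcl10, a chemokine for T cells, with 67.2 and 55.2 CPM in dividing non-stem cells, 81.1 and 76.9 CPM in dividing stem-marker cells, 6.08 and 21.1 CPM in Cftr-positive cells and 6.97 and 23 CPM in surface colonocytes. Its log2 differences were 2.06 ± 0.66 over Cftr-positive cells and 1.43 ± 0.55 over surface colonocytes (edgeR, adjusted p = 0.0288 and 0.0342), and Cxcl10 passed in neither comparison without the library block, under the stricter rule or by DESeq2 (adjusted p = 0.0508 to 0.193).

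Secretory genes were low by the rule but not absent. Against Cftr-positive cells 3 of 25 goblet and secretory genes were higher and 1 lower, both below the shares of all genes (18.7% and 18.2%). Creb3l1, a transcription factor of the secretory pathway, had 187 and 143 CPM in dividing non-stem cells, 193 and 187 CPM in dividing stem-marker cells and 79.7 and 27 CPM in Cftr-positive cells (1.47 ± 0.27 over Cftr-positive cells, edgeR, adjusted p = 0.00167). Enteroendocrine genes rested on 2 cells of library 2. One of them, with 7 UMIs of Mki67 and Top2a and a high doublet score, held 1712 of the 1732 UMIs of Pyy (peptide YY) in library 2, 683 UMIs of Gcg (proglucagon) and 286 of Cck. The other, with 47 UMIs of Mki67 and Top2a, held 827 of the 889 UMIs of Chgb, a protein of hormone granules, and none of Pyy, Gcg or Cck. No other dividing non-stem cell had more than 14 UMIs of the enteroendocrine and tuft list, so its counts of calls (1 of 7 genes higher against dividing stem-marker cells and Cftr-positive cells, 6 of 7 against surface colonocytes) describe these cells.

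Within the dividing non-stem cells, several genes differed between the libraries. Areg had 262 CPM in library 2 and 27.2 CPM in library 1, Emp1, an epithelial membrane protein, had 395 and 69.8 CPM, and Krt20 had 441 and 105 CPM. Sprr1a, a cornified envelope gene, had 38.2 CPM in library 2 and 3 UMIs in library 1. The brakes Mxd1 and Cdkn1a had 217 and 54.3 CPM and 501 and 148 CPM in the same order. Library 1 was richer in Aqp4, at 771 CPM against 365 CPM in library 2, in Il18, at 135 against 55.8 CPM, and in the gasdermin gene Gsdmc4, at 139.9 against 11.2 CPM.

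No direction among these genes rested on 1 cell. Without the richest cell of each library, Areg had 244 CPM in library 2 and 23.4 CPM in library 1, Krt20 had 392 and 86.2 CPM, and Gsdmc4 had 8.76 CPM in library 2 and 125 CPM in library 1. Other cells differed in the same direction for several of them. Gsdmc4 had 335 CPM in library 1 and 63.8 CPM in library 2 of the Cftr-positive cells and 129 and 18.3 CPM in surface colonocytes, and Areg had 171 and 372 CPM in the Cftr-positive cells and 151 and 208 CPM in surface colonocytes, library 1 first. These genes were picked for their difference between 2 libraries, which has no test, and library, animal and disease course cannot be told apart.

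**Figure D5:**
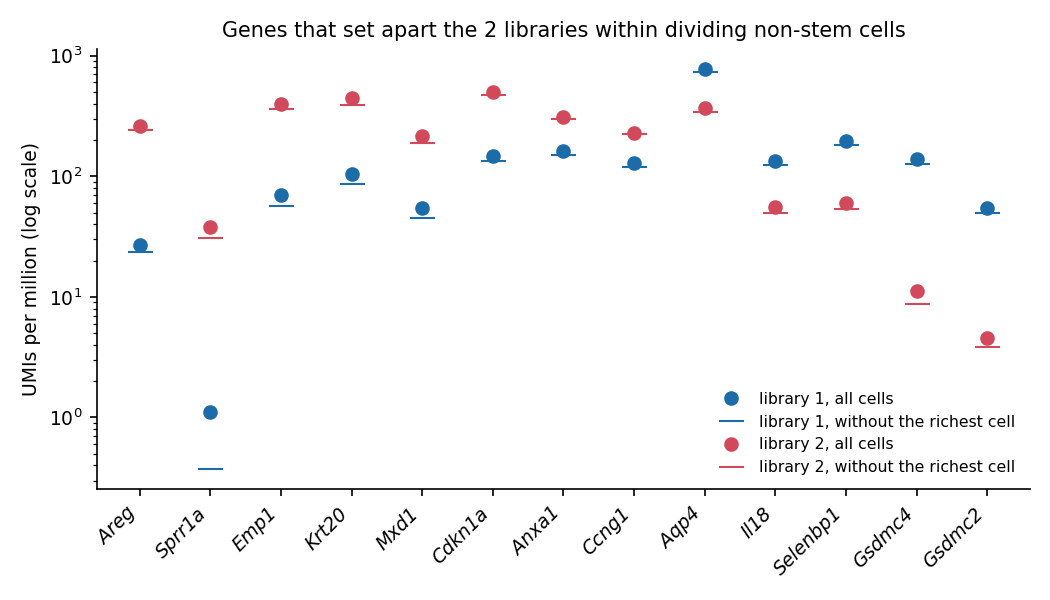
Levels of 13 genes in the summed dividing non-stem cells of library 1 (blue, 62 cells) and library 2 (red, 168 cells), in CPM on a log scale, with all cells (points) and without the cell that held most UMIs of the gene (dashes). The first 8 genes are higher in library 2 and the last 5 in library 1, with and without that cell.

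Summed markers of other cells mostly lay within or below the range of the other epithelial groups, but some were found in nearly every cell. S100a8, a neutrophil marker, had a UMI in 62 of 62 and 168 of 168 dividing non-stem cells. Igkc, a plasma cell marker, had a UMI in 57 of 62 and 166 of 168. In dividing stem-marker cells Igkc was found in 42 of 44 and 30 of 30. The part of such RNA in the results was not tested. The 6 T and NK cell markers summed to 19.1 and 24.3 CPM in dividing non-stem cells, against 20.6 to 31.2 CPM over the 3 comparison groups. The 5 neutrophil markers summed to 260 and 484 CPM, against 283 to 1156 CPM, with Csf3r at 0 in library 1. The 6 B and plasma cell markers summed to 149 and 419 CPM, against 123 to 245 CPM, with Mzb1 at 0 in both libraries, so library 2 was above the comparison groups. The 7 phagocyte markers summed to 97.7 and 171 CPM, against 87.1 to 180.03 CPM, with Adgre1 at 0 in library 1, and the 5 fibroblast markers to 10.3 and 26.5 CPM, against 7.28 to 83.0 CPM. The 3 endothelial markers summed to 1.84 and 2.29 CPM, against 0.675 to 7.71 CPM, with Cdh5 at 0 in library 1 and Kdr in library 2, and the 3 erythroid markers to 0 and 0.675 CPM. Scrublet put 3 of 62 and 27 of 168 dividing non-stem cells among the highest doublet scores (4.84% and 16.1%), against 2.98% and 8.98% of all epithelial cells. The shares were 2.27% and 3.33% in dividing stem-marker cells, 0% and 13.1% in Cftr-positive cells and 1.80% and 2.62% in surface colonocytes. Without high scorers 993 genes were higher and 383 lower than in dividing stem-marker cells, and 2174 and 2137 against Cftr-positive cells.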

How the data were processed

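The deposited files hold counts of UMIs per gene and cell barcode, made with Cell Ranger 7.0.0 per the file headers. Version 8.0.0 and mm10 appear in the submitters' processing notes. Which gene annotation was counted is not given in the sources. The labels name a 3' version 3 capture kit beside version 2 library reagents. Of 55357 gene IDs, 52081 were found in GENCODE M21 (GRCm38), which gave the positions. The authors' counts were summed per library and cell group, and levels are counts per 1000000 of the sum (CPM).

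Tests used edgeR 4.0.16 (R 4.3.3): quasi-likelihood fit, TMM factors, filterByExpr, 5 groups, the library as a block, 4 residual degrees of freedom and Benjamini-Hochberg adjusted p under 0.05. Groups with under 20 cells in a library were not fitted. Both sums of a library come from the same tissue sample, and deviations of same-library sums correlated at 0.137 to 0.366 over 10 pairs of groups, so the library pairs them. DESeq2 1.42.0 was an alternative test. Cells were read with scanpy 1.11.5 (Python 3.11.15, numpy 2.4.6, scipy 1.17.1), and Scrublet scores marked the highest scorers at 0.8% per 1000 barcodes, and these cells stayed in. Intervals are exact binomial and cover counting error only. The fits were also run on simulated counts. All groups there shared the same gene means, apart from genes changed on purpose in the dividing non-stem cells. They had no library effect, so the run does not show how the fits behave on the real groups.

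In each comparison the named genes are the 8 with the largest rise and the 8 with the largest fall among genes past the threshold that moved the same way in both libraries, with at least 50 CPM in the higher group, leaving out the genes of the cell rules, mitochondrial, ribosomal protein and predicted genes. From each of 21 lists they are the 4 with the highest level and the 2 with the largest difference in each comparison, beside the marker genes. A further 14 list genes, among them Krt20, Ccng1, Cdkn2d, Il18, Emp1 and Trp53, were named after their values were seen. The cells and lists were chosen with earlier results of these data known. Alternatives were RLE scaling, DESeq2, no filter on low counts, no replicate block, doublets left out, cells thinned to 5000 UMIs, a stricter rule (at least 10 UMIs of Mki67 and Top2a, 0 of Lgr5 and Smoc2, under 5 of Muc2 and under 3 of Aqp8), a mitochondrial limit of 10%, each library left out, and library totals without TMM factors, which was added after the TMM factors were seen.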

Additional observations from a re-analysis of the deposited data

How the results depend on the processing

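Against dividing stem-marker cells, where 711 genes were higher and 290 lower in dividing non-stem cells, the counts were 1119 and 436 with no filter on low counts, 321 and 100 with no replicate block, 147 and 57 in cells thinned to 5000 UMIs, 380 and 153 under the stricter rule, and DESeq2 found 163 lower. Against Cftr-positive cells (2171 and 2123), thinning left 719 and 713, DESeq2 called 1302 higher, and library totals without TMM 1278 lower. Against surface colonocytes (4586 and 4100), thinning left 2385 and 2182, and library totals 2172 lower. Thinning also left fewer genes to test, 6343 in place of 11640, and otherwise the cause was not tested. The library block pairs sums of the same library, and without it 77 results for single genes lost their call. Of single genes over Cftr-positive cells, the log2 difference turned to -2.45 (Pyy), -3.79 (Chgb) and -3.64 (Gcg) under the stricter rule, -3.91 (Gcg) without doublets, -0.50 (Cck) without library 2 (5.99 without library 1) and 0.083 (Slc16a3) with thinning. Over dividing stem-marker cells Cck turned to -0.16 without library 2 (5.99 without library 1). Over surface colonocytes Pyy, Gcg and Chgb turned to -1.72, -1.21 and -1.60 under the stricter rule and -1.80, -1.11 and -1.10 without library 2 (5.99, 5.90 and 4.86 without library 1), Pyy and Gcg to -0.88 and -1.38 without doublets, and Insl5 to -1.77 without library 2 (5.62 without library 1), and these hormone genes rest on the 2 cells named in the text. With library totals, Anxa1, Dmbt1, Atp5b, Cox5a, Fos, Acadvl and Cdx2 turned to 0.077, 0.47, 0.56, 0.048, 0.071, 0.079 and 0.28 over surface colonocytes. The mean share of epithelial cells was 8.697%, and 3.56% to 13.8% with 1 library left out.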
